A study of Rattus norvegicus with 6 samples.

Results

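Actb, B2m and Hsp90ab1 are transcripts that laboratories often use to put RNA amounts of different samples on 1 scale, and they are described here in rat pancreatic islets, which contain the beta cells that make insulin. Their probes were found through the RefSeq transcript that each probe carries: NM_031144 for Actb, NM_012512 for B2m and NM_001004082 for Hsp90ab1. Each transcript has 3 probes, so the 3 genes have 9 of the 39886 non-control probes, and they are 3 of the 38 genes that could be matched by transcript. All 9 have custom probe names. The array's catalogue probes, whose names begin with A_, include 0 matched to these genes, so that prefix was not required in choosing the probes. The probes are numbered here 1 to 3 within each gene, in the order of the custom probe numbers in the files. No source used here gives their sequences or their places on the transcripts, so none is printed.

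Actb encodes beta-actin, a building block of the cytoskeleton. B2m encodes beta-2-microglobulin, the light chain that MHC class I molecules need to reach the cell surface. Hsp90ab1 encodes the constitutive cytosolic form of the chaperone HSP90, which helps many kinases and receptors to fold. A reference transcript serves its purpose only while its level does not move with the condition studied. Beta-actin is closely related in sequence to gamma-actin and has many processed pseudogenes, and Hsp90ab1 is closely related to Hsp90aa1, so which related RNA a probe also binds is uncertain without its sequence.

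The arrays compared islets of adult rats (3 months; 3 samples, each from 1 animal) with islets of 10-day-old pups (P10; 3 samples, each pooled from 2 pups). RNA ligase attached the dye Cy3 to the 3′ ends of total RNA, which was read in 1 colour on arrays designed for PIWI-interacting RNAs (piRNAs), so a transcript probe reads whatever end-labelled RNA binds to it. No strain, sex or treatment is given in the labels. Slides were inferred: arrays with the scan date of P10 1 in their file headers were taken as slide 1, and the others as slide 2. By this, Adult 2 and Adult 3 lay on slide 2, and Adult 1 lay on slide 1 together with the 3 P10 arrays. Across the tested probes Adult 1 correlated more closely with P10 1 (r = 0.941) than with Adult 2 (r = 0.917) or Adult 3 (r = 0.908). It correlated less closely with P10 2 (r = 0.857) and P10 3 (r = 0.866) than with either of those adult arrays. Of the 89 transcript probes, 28 could not be matched to a gene, and 0 of the matched ones belong to the lists of endocrine, acinar, ductal, endothelial, stromal and immune marker genes, so the cell make-up of the preparations was not measured and the labelled tissue could not be checked. In whole islets, fewer cells of a type and less RNA per cell cannot be told apart.

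On each of the 6 arrays, all 9 probes exceeded the background clearly by the scanner software's own mark. Of their 540 spots over the arrays, 17 were marked as outliers and dropped, leaving between 7 and 10 spots per probe and array. No spot was saturated. The background-subtracted signal lay between 14.1 and 730 intensity units, beside a median local background of 19 to 21 units. Over the spots of 1 probe on 1 array, the median standard deviation (SD) of the log2 signal was 0.11. A level below is the mean log2 signal of the spots minus the array's 75th percentile, taken over the piRNA probes that every array detected above background. It is thus a relative brightness within an array, says nothing of how much RNA an islet held, and is not set against the level of another probe as an amount.

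None of the 9 probes passed the threshold between the ages (limma, Benjamini-Hochberg over all tested probes, threshold of 0.05), and 0 had an unadjusted p below 0.05. Among all 11981 tested probes, 6.05% passed the adjusted threshold, and 28.1% had an unadjusted p below 0.05. Of the 10-spot probes in the same fit, which are the transcript, miRNA and custom probes, 7.41% passed. The share of all tested probes depended on the arrays used and was carried by 725 probes, or 4.27% called higher and 1.78% called lower in adult islets; without Adult 2, Adult 3 or P10 3 it was 0 (limma), while 2394, 2201 and 2300 probes had an unadjusted p below 0.05. Without regard to the test, the estimate was higher in adult islets for 7 of the 9 probes and lower for 2. The share of all tested probes with a higher estimate was not computed, and their median difference was -0.04. Probes of 1 gene are not independent. The sign of B2m probe 2 and of Hsp90ab1 probe 2 turned when the background was corrected by normexp. Without Adult 1, the sign of B2m probe 2 and of Hsp90ab1 probe 3 turned. The median size of the log2 difference was 0.43 over the 9 probes, against 0.56 over the 10-spot probes and 0.57 over all tested probes. A missed threshold does not show that the levels were equal, and the 95% intervals of 7 of the 9 differences reached 2-fold in at least 1 direction.

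**Figure D1:**
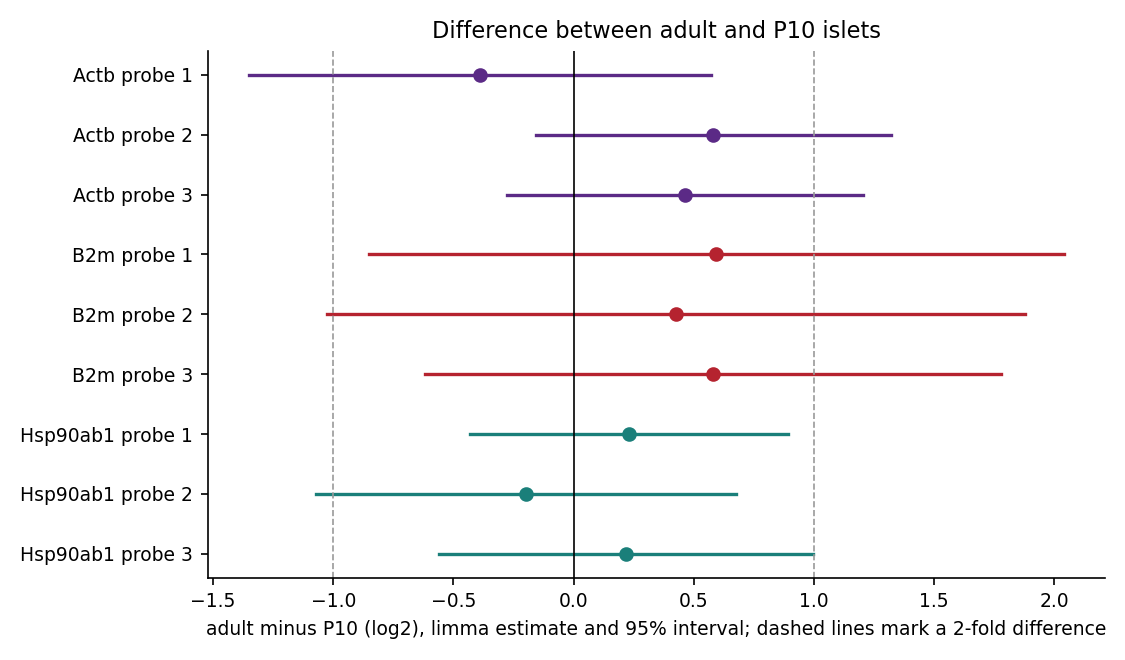
Adult minus P10 difference of each probe on the log2 scale (points), with its 95% interval from limma (bars), for 3 adult and 3 P10 arrays. All 9 intervals hold 0, and those of Hsp90ab1 probes 1 and 3 alone lie inside the dashed lines that mark a 2-fold difference, probe 3 only just.

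The Actb probes did not move together. Probes 2 and 3 were estimated higher in adult islets, probe 1 was estimated lower, and none of the 3 differences passed the test. Probe 1 had levels of -0.50, -0.74 and -0.92 in Adult 1, Adult 2 and Adult 3, against -1.03, 0.43 and -0.39 in P10 1, P10 2 and P10 3. The P10 values lay on both sides of the adult values, so the ages overlapped. Its adult minus P10 difference was -0.39 ± 0.41 (SE; limma adjusted p = 0.569), or 0.763-fold with a 95% interval of 0.392-fold to 1.49-fold. Without P10 2 the difference was -0.0087.

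Probe 2 of Actb had levels of -0.51, -0.75 and -0.84 in the adult arrays, against -1.0, -1.11 and -1.74 in the P10 arrays. It was the only probe of the 9 whose ages did not overlap, which is 11.1% of them, whereas the ages did not overlap in 31.6% of all tested probes with a value on every array and in 22.5% of the tested 10-spot probes. This separation rested on uneven spots on Adult 3, where 3 of the 10 lay between -0.42 and -0.32 and the other 7 between -1.11 and -0.93. With the median over spots, Adult 3 was at -1.02 and P10 1 also at -1.02, and the ages of 0 of the 9 probes were apart. Over the other scalings, backgrounds and spot summaries, a check added after seeing the data, the count lay between 0 (also without scaling) and 3. The 31.6% and 22.5% hold for the main processing, and no such share was computed for these alternatives. The difference of probe 2 was 0.58 ± 0.32 (SE; limma adjusted p = 0.268), or 1.50-fold with an interval of 0.898-fold to 2.50-fold. Probe 3 followed the same pattern, with levels of -0.77, -1.07 and -1.29 in the adult arrays, against -1.28, -1.32 and -1.91 in the P10 arrays. Adult 3 and P10 1 were nearly level in probe 3, so its ages overlapped, and the difference was 0.46 ± 0.32 (SE; limma adjusted p = 0.371), or 1.38-fold with an interval of 0.825-fold to 2.30-fold.

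**Figure D2:**
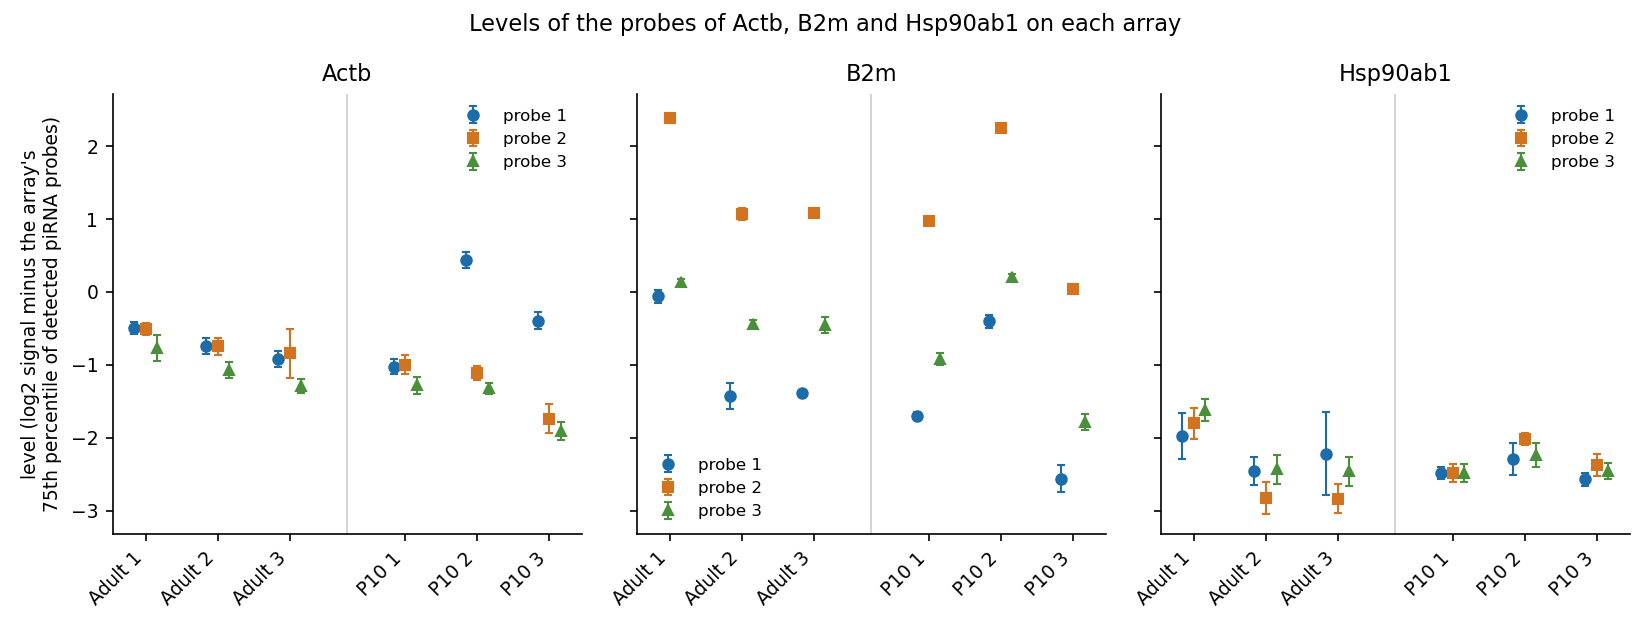
Level of each probe on each array, with a panel for each gene, adult arrays on the left and P10 arrays on the right of each panel. Points are means over the spots of a probe and bars are the SD over those spots. Actb probe 1 separates from probes 2 and 3 on P10 2 and P10 3, the B2m probes share 1 pattern that is highest on Adult 1 and P10 2, and the Hsp90ab1 probes have their highest level on Adult 1, with probe 2 spanning 2.05-fold and probe 1 spanning 1.51-fold.

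The divergence of the Actb probes lay in 2 of the 6 arrays. The log2 ratio of probe 1 to probe 2, which does not depend on the scaling between arrays, was 0.01, 0.01 and -0.08 in the adult arrays, against -0.03, 1.55 and 1.35 in P10 1, P10 2 and P10 3. On P10 2 the signal of probe 1 was 129 units and that of probe 2 was 44.3 units, and on P10 3 they were 107 and 42.0 units. The adult arrays and P10 1 thus had nearly the same ratio, and P10 2 and P10 3 stood apart from them. P10 1 and Adult 1 lay on the same slide as P10 2 and P10 3. The cause of the divergence was not tested. The spots of the 2 probes on these 2 arrays had SDs between 0.10 and 0.20, so the separation was larger than the spread between spots. The ratio of probe 2 to probe 3, in contrast, stayed between 0.25 and 0.44 in the adult arrays and between 0.17 and 0.28 in the P10 arrays. The age difference of the ratio of probe 1 to probe 2 was -0.97 (exact permutation test over arrays, two-sided, p = 0.3, the smallest possible p with 3 arrays per age being 0.1; adjusted p = 0.54 over the 9 pairs within a gene).

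The B2m probes moved together from array to array, and the ages overlapped in all 3. All 3 were highest on Adult 1 and P10 2 and lowest on P10 3. Probe 2 had signals of 730, 228 and 214 units in Adult 1, Adult 2 and Adult 3, against 344, 456 and 144 units in P10 1, P10 2 and P10 3. Its levels were 2.39, 1.07 and 1.09 in the adult arrays, against 0.97, 2.25 and 0.04 in the P10 arrays. The highest and the lowest array therefore differed 5.10-fold in level, and each age held both a high and a lower array.

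Probe 1 of B2m had levels of -0.06, -1.43 and -1.39 in the adult arrays, against -1.70, -0.40 and -2.56 in the P10 arrays. Probe 3 had levels of 0.13, -0.44 and -0.45 in the adult arrays, against -0.92, 0.20 and -1.79 in the P10 arrays. In both, the ages overlapped, and P10 3 lay below every other array. The spread within an age was wide: probe 2 averaged 1.51 ± 0.76 in adult islets and 1.09 ± 1.11 in P10 islets (SD, n = 3 each). Accordingly, the differences of probes 1, 2 and 3, at 0.59 ± 0.62, 0.43 ± 0.62 and 0.58 ± 0.51 (SE; limma adjusted p = 0.564, 0.685 and 0.491), had the widest intervals of the 9, which ran from 0.554-fold to 4.11-fold in probe 1, 0.491-fold to 3.67-fold in probe 2 and 0.652-fold to 3.43-fold in probe 3. The estimate for probe 2 changed sign when 1 array was left out, to -0.01 without Adult 1 and -0.10 without P10 3. The spread between spots was smaller, with a median SD on an array of 0.088 for probe 1, 0.061 for probe 2 and 0.071 for probe 3. The log2 ratio of probe 1 to probe 2 was -2.45, -2.50 and -2.48 in the adult arrays, against -2.67, -2.65 and -2.60 in the P10 arrays. This ratio varied by only 0.23 over the arrays, and its ages did not overlap (difference 0.17; exact permutation test, two-sided, p = 0.1; adjusted p = 0.45 over the 9 pairs within a gene).

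The Hsp90ab1 probes had signals close to the local background, and the levels of probes 1, 2 and 3 spanned 1.51-fold, 2.05-fold and 1.82-fold over the arrays. Probe 1 had levels of -1.98, -2.46 and -2.22 in Adult 1, Adult 2 and Adult 3, against -2.49, -2.29 and -2.57 in P10 1, P10 2 and P10 3. The ages overlapped, and all 6 levels lay within 1.51-fold of each other. Its difference was 0.23 ± 0.28 (SE; limma adjusted p = 0.626), or 1.17-fold with an interval of 0.742-fold to 1.86-fold, the narrowest of the 9. Its spots on Adult 3 were uneven, with an SD of 0.57, a mean signal of 21.6 units and a median spot of 17.7 units.

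Probe 2 of Hsp90ab1 had levels of -1.80, -2.83 and -2.83 in the adult arrays, against -2.49, -2.02 and -2.37 in the P10 arrays. Probe 3 had levels of -1.62, -2.44 and -2.46 in the adult arrays, against -2.48, -2.23 and -2.46 in the P10 arrays. In both, Adult 1 was the highest array, whereas Adult 2 and Adult 3 lay below the P10 arrays in probe 2 and close to P10 1 and P10 3 in probe 3. The difference was -0.20 ± 0.37 for probe 2 and 0.22 ± 0.33 for probe 3 (SE; limma adjusted p = 0.758 and 0.695), with intervals of 0.476-fold to 1.6-fold and 0.679-fold to 2.00-fold. Both estimates turned with the arrays used: within slide 1, where Adult 1 is the only adult array, probe 2 was at 0.49, and without Adult 1 probe 3 was at -0.058. The log2 ratio of probe 2 to probe 3 was -0.19, -0.39 and -0.37 in the adult arrays, against 0.00, 0.22 and 0.09 in the P10 arrays; the ages did not overlap, at the smallest p that the arrays allow (exact permutation test, two-sided, p = 0.1; adjusted p = 0.45 over the 9 pairs within a gene). Within a gene, 2 of the 9 pairs thus had no overlap between the ages, against 32.8% of all pairs of 10-spot probes well above background on every array.

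**Figure D3:**
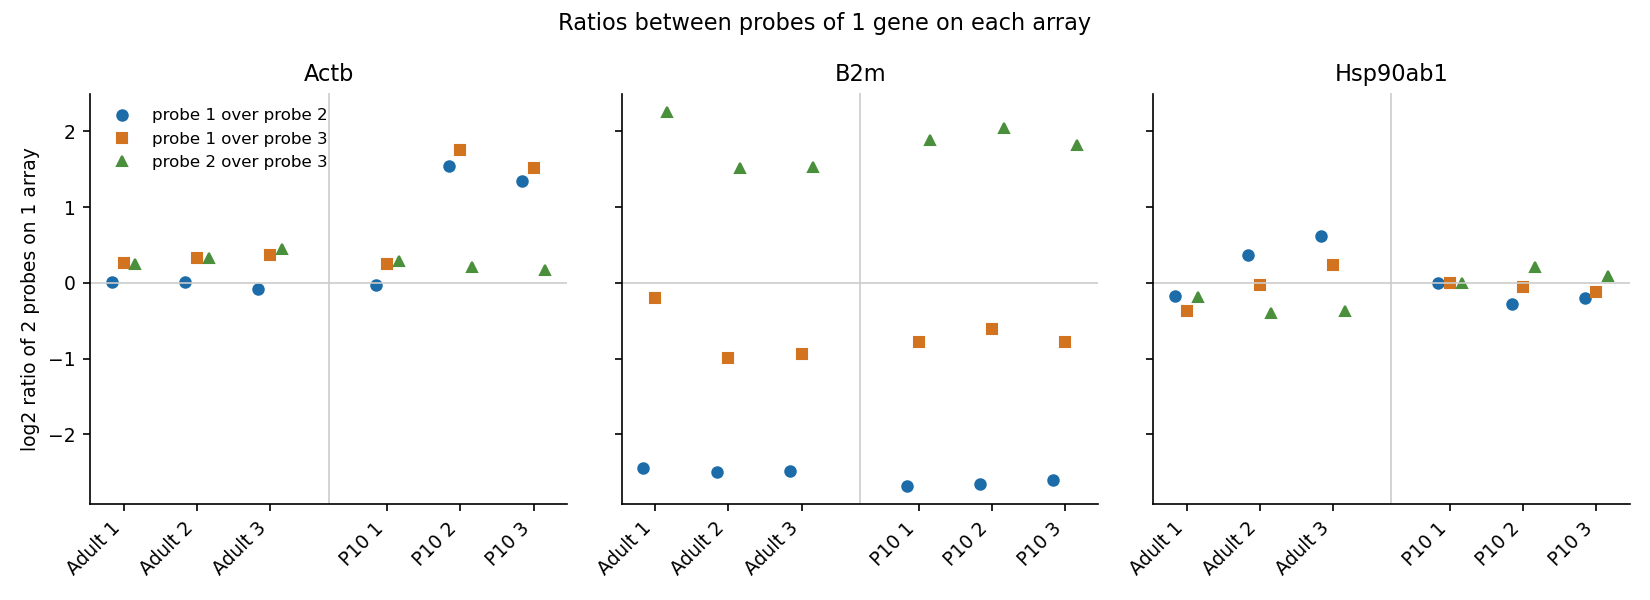
Log2 ratio of the signals of 2 probes of the same gene on each array, adult arrays left and P10 arrays right in each panel. The height of a row has no meaning across probes, since probes differ in brightness, and a flat row shows probes that move together. The symbols mean the same in every panel. Actb probe 1 lies above probes 2 and 3 on P10 2 and P10 3, by 1.35 to 1.76, and B2m probe 1 over probe 2 is flat, between -2.67 and -2.45.

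The same arrays were often the highest or the lowest among the 9 probes. For no count of probes in this paragraph was the share over all tested probes computed. The levels on an array share 1 scaling, and probes of 1 gene are not independent, so these counts describe the 9 probes only. Adult 1 was the highest of the 6 arrays in 7 of the 9 probes, with Actb probe 1 and B2m probe 3 as the exceptions, and P10 3 was the lowest in 6. Within slide 1, Adult 1 lay above the mean of the 3 P10 arrays in 8 of the 9 probes, by 0.47 to 1.49, and below it by 0.17 in Actb probe 1. Within slide 1 this comparison has a single adult array, and slide 2 held adult arrays only. The mean level of the 9 probes was -0.52, -1.23 and -1.26 in Adult 1, Adult 2 and Adult 3, against -1.38, -0.72 and -1.75 in P10 1, P10 2 and P10 3. Adult 2 and Adult 3 lay between P10 1 and P10 2, so the order of the arrays did not follow age. The mean of the 9 differed by 1.23 between the highest and the lowest array and had an SD of 0.45, while the SD of single probes lay between 0.22 and 0.91.

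By their SD over the 6 arrays, the B2m probes varied more than the Actb and Hsp90ab1 probes, whose places were interleaved, but the order depended on the scaling and the background correction. Among the 80 tested 10-spot probes with a value on every array, in order from the steadiest, Hsp90ab1 probes 1, 3 and 2 took places 2, 15 and 20, with SDs of 0.22, 0.34 and 0.42. Actb probes 3, 2 and 1 took places 17, 19 and 36, with SDs of 0.38, 0.42 and 0.53. B2m probes 3, 2 and 1 took places 48, 58 and 59, with SDs of 0.74, 0.88 and 0.91. The median SD of the 80 was 0.61, and 6 of the 9 probes lay below it. Without any scaling between arrays, Hsp90ab1 probe 1 had an SD of 0.36 and probe 2 an SD of 0.59, above the 0.47 to 0.50 of the Actb probes, and the B2m probes had SDs of 0.64 to 0.86. With normexp, the SDs were 0.42 to 0.45 for Hsp90ab1, 0.27 to 0.35 for Actb and 0.38 to 0.54 for B2m, so all Hsp90ab1 probes varied more than all Actb probes and overlapped with those of B2m.

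**Figure D4:**
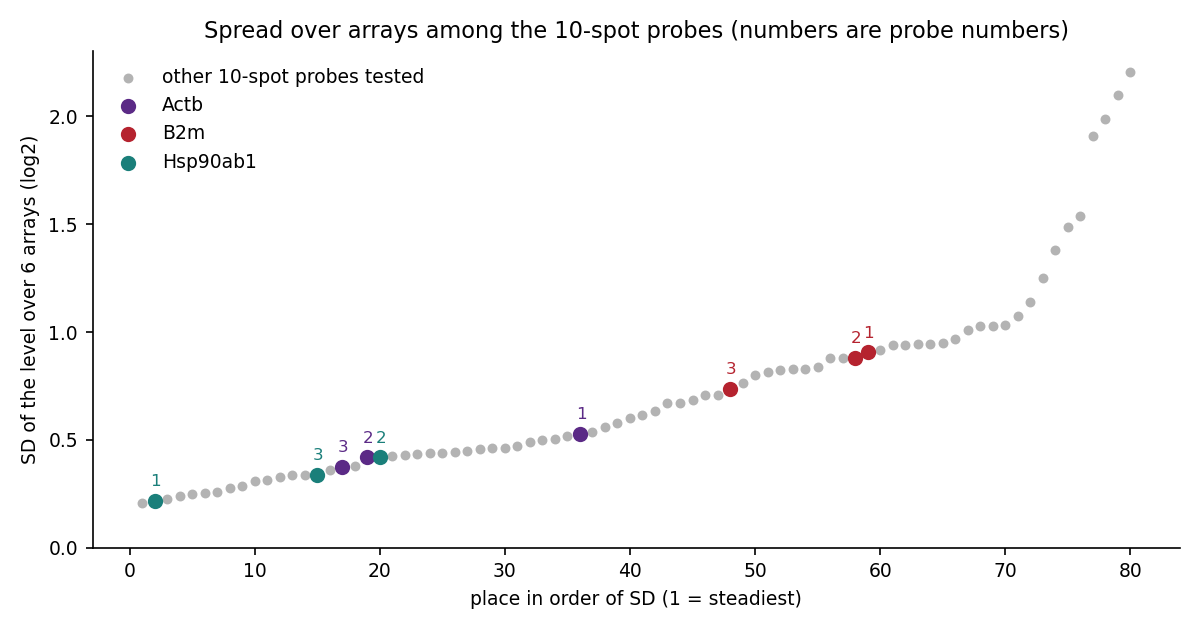
SD of the level over the 6 arrays for the 80 tested 10-spot probes with a value on every array, placed in order from the steadiest. Coloured points are the probes of the 3 genes, with their probe numbers, and grey points are the others. Hsp90ab1 probe 1 holds place 2, and the 3 B2m probes lie above the median of 0.61.

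Where 1 transcript is used to scale another, what counts is their ratio within an array. Of the 27 pairs of probes from different genes, 1 had ratios that did not overlap between the ages, or 3.70%, set beside the same 32.8%. In that pair, Actb probe 1 over B2m probe 3, the log2 ratio averaged -0.47 in adult islets and 0.51 in P10 islets, a difference of -0.97 (exact permutation test, two-sided, p = 0.1; adjusted p = 0.81 over the 27 pairs). The lowest adjusted p of the 27 was also 0.81. With 1 array left out, the count was 5 without Adult 1, 3 without Adult 2 and 2 without Adult 3. It was 7 without P10 1, 13 without P10 2 and 1 without P10 3. Leaving out an array can only keep or raise such a count, so the direction of these changes was fixed in advance. The share of all pairs of 10-spot probes was not computed with an array left out. The range of a ratio over the 6 arrays was smallest for Actb probe 3 over Hsp90ab1 probe 1, at 0.72 on the log2 scale, and largest for Actb probe 1 over B2m probe 1, at 2.61.

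Over the 6 arrays, which share the same scaling, levels of the B2m probes correlated with each other at r between 0.951 and 0.995, and Actb probes 2 and 3 at r = 0.977. Actb probe 1 correlated with Actb probes 2 and 3 at r = -0.28 and -0.15. Of the 52 gene-named transcript probes of other genes, the 3 most like Actb probe 1 were 2 probes of Rplp1 (r = 0.916 and 0.893) and 1 of Rpl13a (r = 0.857), both genes of ribosomal proteins. With Actb probe 2 the same 3 probes had r = -0.52, -0.49 and -0.57, a comparison chosen after the values were seen. The other Rpl13a probes had r = 0.82 and 0.83 to Actb probe 1, and r = -0.37 and -0.33 to Actb probe 2. The third Rplp1 probe did not share this contrast, with r = 0.45 to Actb probe 1 and r = 0.34 to Actb probe 2. Most like B2m probe 2 were the probes of Slc28a2, a nucleoside transporter (r = 0.759), Ndfip1, an adaptor of ubiquitin ligases (r = 0.749), and Pdk3, a pyruvate dehydrogenase kinase (r = 0.548). Most like Hsp90ab1 probe 3 were those of Ndfip1 (r = 0.924), the growth factor Fgf2 (r = 0.835, well above background on 2 of the arrays) and Pdcd10 (r = 0.758). These are descriptions over 6 points.

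Of 19 other common reference genes, 8 were matched to probes of the arrays, with 25 probes, of which 16 were tested. Of the 16, 1 was called higher and 0 lower in adult islets, which is close to the 6.05% of all tested probes called. An unadjusted p below 0.05 (limma) was found for 3 of the 16, against 28.1% of all tested probes. The called probe, of the glycolytic enzyme Pgk1, had a level of 2.21 ± 0.52 in adult islets and -1.34 ± 1.56 in P10 islets (SD, n = 3 each). Its difference was 3.55 ± 0.74 (SE, limma adjusted p = 0.0446). The other Pgk1 probes did not show a difference of that size: the other tested one had a level of -3.48 ± 0.26 in adult islets and -3.69 ± 0.22 in P10 islets (SD, n = 3 each), a difference of 0.21 ± 0.29 (SE; limma adjusted p = 0.673), and the untested one had a level of -4.30 ± 0.29 in adult islets and -4.12 ± 0.29 in P10 islets. The call of the first Pgk1 probe held in 14 of 25 other settings, added after seeing the data. With slide 1 alone set aside, its adjusted p lay between 0.00146 and 0.421 (limma). The call was lost without Adult 2 (0.142), Adult 3 (0.169), P10 2 (0.0973) or P10 3 (0.169). It was also lost with the slide as a block (0.421), the replicate block (0.0765), normexp (0.0639) and cyclic loess (0.0563). Without scaling (0.133) and without a detection filter (0.0756) it was lost as well. The difference was 2.95 with the slide as a block and on slide 1 alone. Slide 2 held adult arrays only, so these settings give the same estimate by design, and it rests on a single adult array. The 16 had a median SD over the arrays of 0.45, against 0.42 for the 9 probes of Actb, B2m and Hsp90ab1. Their median age difference was -0.33, against 0.43 for the 9 and -0.04 for all tested probes. Hprt1, a purine salvage enzyme, was not well above background on any array in any of its 3 probes. The lists of actin and cytoskeleton genes, of MHC class I presentation and of other HSP90 chaperones have 0 members among the matched probes.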

How the data were processed

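The deposited spot intensities came from 1-colour scans read with Agilent Feature Extraction 11.0.1.1, per the file headers, which also name the build rn4. The software had subtracted the background, and the arrays had not been normalized to each other. The marks for outliers, saturation and spots well above background, and the median spot and local background intensities, come from the same deposited files. The deposited value table and comparison table hold piRNA probes only and were not used. Groups and replicate numbers came from the sample titles. The slides were inferred from the scan date in the file headers.

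Each array held 42734 spots, of which 1417 control spots were left out. Spots without an outlier mark were averaged on the log2 scale. A probe counted as well above background where most of its spots were. The 11992 probes that passed this in every array of 1 age or both entered 1 fit with limma 3.58.1 in R 4.3.3 (adult minus P10, age as the only term, two-sided), and 11981 had a p-value. Ratios between probes were tested by exact permutation over arrays. The fit was tested on simulated levels with independent noise on each array. Such levels hold no deviation that probes share on an array or slide, so the test does not cover such deviations. Figures were drawn with matplotlib 3.10.9.

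Genes were matched through unversioned RefSeq transcripts in a gene table of the assembly GRCr8, which matched 61 of 89 transcript probes. The build differs from that of the files, so no coordinates are given. The members, the gene lists and the tests were chosen with earlier results of these data known. Named are the 9 probes, for the brightest probe of each gene the 3 gene-named transcript probes of other genes with the highest correlation over the 6 arrays, and list members. Normexp was run on the median spot intensity, as the mean is not in the files used here. The arrays numbered alike did not deviate together, with correlations of deviations of -0.04, 0.24 and -0.23 for numbers 1, 2 and 3, so no pairing was used. The number of arrays limits the precision. No per-sample column of another series was present.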

Additional observations from a re-analysis of the deposited data

How the results depend on the processing

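None of the 9 probes was called (limma) under any of the 25 alternatives run. Of 225 alternative values of the age differences, 216 kept their direction and 9 reversed. Part of the 216 was fixed in advance. Changing the set of probes fitted or the way the variance is estimated, or adding the replicate block, leaves the difference itself unchanged. The slide as a block and slide 1 alone give the same difference by design, so they are not separate checks. The cause was not tested for any change given here, except where it is named. B2m probe 2 reversed to -0.11 with normexp (offset 50, run after seeing the files), -0.01 without Adult 1, -0.10 without P10 3 and -0.067 without both arrays numbered 1. Hsp90ab1 probe 2 reversed to 0.24 with normexp and to 0.49 on slide 1 alone and with the slide as a block. Hsp90ab1 probe 3 reversed to -0.058 without Adult 1 and to -0.10 without both arrays numbered 1. With 1 array left out, Actb probes 1, 2 and 3 lay between -0.74 and -0.0087, 0.35 and 0.72, and 0.26 and 0.59, B2m probes 1, 2 and 3 between 0.09 and 1.17, -0.10 and 1.01, and 0.10 and 1.1, and Hsp90ab1 probes 1, 2 and 3 between 0.11 and 0.35, -0.54 and -0.02, and -0.058 and 0.37.

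The 725 calls over all tested probes became 6 with the 10-spot probes alone (fewer probes tested), 4298 with array weights, 27 with cyclic loess, 460 with the median of detected piRNA probes, 128 with normexp, 1 on slide 1 alone, 1 with the slide as a block and 3970 without both arrays numbered 1. They became 0 without a detection filter, without scaling and with the replicate block, where 5165, 2855 and 3185 had an unadjusted p below 0.05 (limma), and with 1 array left out lay between 0 (without Adult 2, Adult 3 or P10 3) and 2100 (without Adult 1), with 144 without P10 2 and 2018 without P10 1. With normexp 37 calls were higher and 91 lower in adult, against 512 and 213. The median difference of all tested probes, -0.04, was 0.33 with normexp, -0.25 without scaling, 0.17 without a detection filter and 0.06 with the percentile over all piRNA probes. The arrays share replicate numbers that do not pair them, and under the replicate block 0 of the 9 probes were called.

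The 1 pair between genes with no overlap became 2 with the median over spots, 2 without background correction and 4 with normexp. The count was 8 on slide 1 alone and 10 without both arrays numbered 1, and lay between 1 and 13 with 1 array left out. The share of all pairs of 10-spot probes was not computed in any of these settings. Fewer arrays can only keep or raise such a count, so these counts show nothing particular to these genes. The SD of Hsp90ab1 probe 1 moved to 0.42 with normexp. Its signal of 19.5 to 35.3 units, close to the local background, limits what its small spread can show.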
